A study of Mus musculus with 4 samples.

Results

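The antioxidant enzymes and glutathione transferases were read in gonadal white adipose tissue (WAT), taken from FSP27-deficient and wild-type mice. The group holds 39 genes, chosen by name, and a gene was measured where the platform annotation ties a probe set to its symbol alone. This held for 36 of the 39 genes, among 12394 genes named in this way on the array. Prdx1, Prdx5 and Prdx6 were not measured here. The 5 probe sets that list Prdx1 carry several symbols each.

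FSP27-deficient mice lack FSP27, the lipid droplet protein encoded by Cidec. Both genotypes were labelled as C57BL/6J males aged 3 months, and RNA from the gonadal WAT of 5 mice per genotype was combined into a pool of 45 μg. Each pool was hybridised in duplicate, giving 2 FSP27-deficient and 2 wild-type arrays. The arrays of a genotype therefore repeat 1 pool, and every error and p-value below measures the spread between hybridizations and not between mice. Cidec had a signal of 8564 and 8949 in the FSP27-deficient duplicates, against 20491 and 18255 in the wild-type duplicates. The sources used here do not give whether its probe set lies in the deleted part, and this level is therefore no check of the genotype.

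Superoxide dismutases turn superoxide into hydrogen peroxide, which glutathione peroxidases and peroxiredoxins reduce to water. Thioredoxins, glutaredoxins and glutathione carry the electrons for this, and their reductases draw them from NADPH. Glutathione transferases couple glutathione to reactive lipids and foreign compounds. Many of these enzymes exist as separate genes for the mitochondrial matrix, the cytosol and the secretory pathway, and in adipose tissue the mitochondrial forms stand beside a respiratory chain that itself gives off superoxide.

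Antioxidant genes were called in both directions. In FSP27-deficient WAT, 6 of 36 members were higher (Gsto1, Prdx3, Sod2, Gsta4, Mgst1 and Gstz1) and 4 were lower (Gpx3, Gstm1, Gstt1 and Prdx4) at an adjusted p under 0.05 in limma, fitted over the 8523 genes whose mean signal reached 100. In bulk tissue fewer cells of a type and less RNA per cell cannot be told apart. The calls are 16.7% and 11.1% of the members, beside 5.78% of all genes tested called higher, 6.51% called lower and 12.3% called either way. The median log2 fold change was 0.15 over the members and -0.08 over all genes tested. Log2 fold changes are FSP27-deficient minus wild-type on log2(signal + 16), a scale that understates the change of low signals. The arrays of the genotypes did not overlap for 13 members with FSP27-deficient WAT above (22.7% of all genes) and for 7 with it below (31.4% of all genes, 54.1% for either side). The study's fold criterion was applied as a ratio of the genotypes' mean signals no smaller than 1.414 in either direction. Each FSP27-deficient array also had to lie on that side of the wild-type array of the same number. The study asked for consistency between duplicates and did not state this pairing. The criterion took 10 members as higher and 4 as lower, beside 14.4% and 20.6% of all genes. The calls depended on single arrays, since without wild-type replicate 1 no member was called higher and 2 were called lower (216 of all genes were then called higher and 192 lower), and 2 were likewise called lower with wild-type replicate 2 left out. Without a trend of the spread on the signal limma called 0 members, with 11 members at an unadjusted p under 0.05.

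The promoters of 5 members are shown because they bear on the members that moved and on NRF2, the regulator to which several members are known to respond. Each run gives the 250 bases before the RefSeq start site on the strand of the gene (GRCm38.p6), and capitals mark the core of the antioxidant response element, TGACNNNGC, which is bound by NRF2 with a small MAF protein. Sod2 lies at chr17:13007589-13007838 on the plus strand, Prdx3 at chr19:60874539-60874788 on the minus strand, Sod1 at chr16:90220512-90220761, Mgst1 at chr6:138140277-138140526 and Gclm at chr3:122245307-122245556, these 3 on the plus strand. Sod2 and Prdx3 hold no capitals.
Sod2: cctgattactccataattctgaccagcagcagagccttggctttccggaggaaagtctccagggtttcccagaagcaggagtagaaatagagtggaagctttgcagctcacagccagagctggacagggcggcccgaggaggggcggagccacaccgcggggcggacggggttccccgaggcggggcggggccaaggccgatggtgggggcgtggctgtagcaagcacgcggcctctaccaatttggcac
Prdx3: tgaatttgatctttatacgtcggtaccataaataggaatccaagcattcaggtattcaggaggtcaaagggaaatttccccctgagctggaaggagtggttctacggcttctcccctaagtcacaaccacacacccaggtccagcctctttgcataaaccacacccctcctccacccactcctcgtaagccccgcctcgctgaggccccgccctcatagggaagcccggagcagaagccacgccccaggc
Sod1: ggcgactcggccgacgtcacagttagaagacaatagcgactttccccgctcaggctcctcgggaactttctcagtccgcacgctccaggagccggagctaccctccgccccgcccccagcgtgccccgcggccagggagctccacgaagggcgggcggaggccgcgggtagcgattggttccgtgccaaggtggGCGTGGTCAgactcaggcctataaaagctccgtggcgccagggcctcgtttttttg
Mgst1: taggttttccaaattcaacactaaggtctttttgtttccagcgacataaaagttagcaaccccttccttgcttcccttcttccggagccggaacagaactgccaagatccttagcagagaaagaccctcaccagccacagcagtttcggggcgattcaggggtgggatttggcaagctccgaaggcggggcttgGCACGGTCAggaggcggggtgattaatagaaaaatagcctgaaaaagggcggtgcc
Gclm: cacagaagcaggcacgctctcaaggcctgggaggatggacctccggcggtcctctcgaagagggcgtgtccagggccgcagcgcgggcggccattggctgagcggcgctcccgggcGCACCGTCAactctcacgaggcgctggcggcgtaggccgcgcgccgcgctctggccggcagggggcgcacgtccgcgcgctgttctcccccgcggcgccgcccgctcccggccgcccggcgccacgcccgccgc
Read along the strand of the gene, the capitals begin 56 bases before the start site in Sod1 and in Mgst1 and 134 bases before it in Gclm. In each the core lies on the opposite strand, so that the capitals show its reverse complement.

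RefSeq's table holds a promoter for 33 of the 39 members, and 3 motifs were searched on both strands over the 250 bases before and the 50 bases after each start site. The antioxidant core was found in 9 of the 33 members (Gclm, Gsta3, Gstm5, Mgst1, Nfe2l2, Prdx1, Sod1, Srxn1 and Txnrd1), and in 14% of the 27025 genes in the table. Among members with a promoter it was found in 1 of 9 past the test, Mgst1, and in 7 of 22 tested and not past it. The estrogen-related receptor element TNAAGGTCA was found in 0 of the 33 members and in 1.43% of genes. The nuclear respiratory factor 1 site (GCGCA and GCGC with 1 base between them) was found in 3 members (Gpx4, Gss and Gstm5) and in 5.19% of genes. No match of 1 motif overlapped one of another in the members, and a match is a description of the letters and not of binding.

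Sod2, the superoxide dismutase of the mitochondrial matrix, was higher in FSP27-deficient WAT. Its signal was 9901 and 9800 in the FSP27-deficient duplicates, against 4207 and 5730 in the wild-type duplicates. The means were 9850 ± 71.4 in FSP27-deficient WAT and 4969 ± 1077 in wild-type WAT (SD, n = 2 each), a ratio of 1.98 (log2 fold change 1.002, SE 0.18, adjusted p = 0.00354 from limma). The genotypes did not overlap, and the duplicates of FSP27-deficient WAT were close to each other. Another Sod2 probe set gave 0.87 on the log2 scale (adjusted p = 0.00953 in limma over all probe sets), and the dimmest gave 0.35 (adjusted p = 0.746). Without wild-type replicate 1 the call was lost (log2 fold change 0.78, adjusted p = 0.071 from limma).

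Sod1, the dismutase of the cytosol, had a signal of 9957 and 16036 in the FSP27-deficient duplicates, against 9081 and 9602 in the wild-type duplicates. The arrays did not overlap, but the FSP27-deficient duplicates lay far apart and the difference did not pass the test (log2 fold change 0.44, SE 0.21, adjusted p = 0.211 from limma). Its dimmer probe set gave 0.00. Sod3, the secreted dismutase bound to the matrix between cells, had 5965 and 4510 in FSP27-deficient WAT and 5603 and 4094 in wild-type WAT. Its arrays overlapped (log2 fold change 0.11, SE 0.20, adjusted p = 0.782 from limma).

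**Figure D1:**
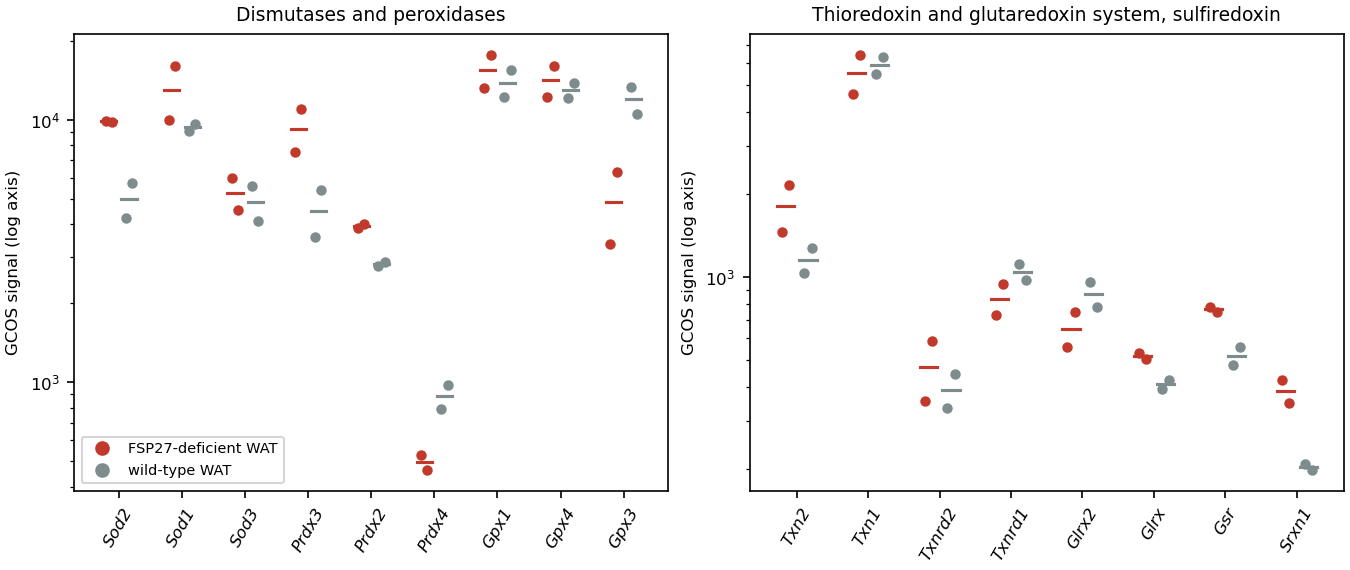
GCOS signal on a log axis of each array for dismutases and peroxidases (left) and for the thioredoxin and glutaredoxin system, Gsr and Srxn1 (right), with FSP27-deficient arrays in red and wild-type arrays in grey. Points are arrays and bars are means of 2 arrays; Sod2 and Prdx3 lie higher and Gpx3 and Prdx4 lower in FSP27-deficient WAT, with no overlap.

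Gpx3, the secreted glutathione peroxidase of plasma, was lower in FSP27-deficient WAT. Its signal was 3360 and 6313 in the FSP27-deficient duplicates, against 13357 and 10509 in the wild-type duplicates. The means were 4836 ± 2088 in FSP27-deficient WAT and 11933 ± 2014 in wild-type WAT (SD, n = 2 each), 2.47-fold lower (log2 fold change -1.36, SE 0.25, adjusted p = 0.00412 from limma). The genotypes did not overlap, although the FSP27-deficient duplicates differed from each other, and the log2 fold change without FSP27-deficient replicate 1 was -0.91 (adjusted p = 0.00398 from limma). Gpx3 stayed past the threshold with any single array left out.

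The intracellular glutathione peroxidases did not pass the test. Gpx1, the cytosolic enzyme, had 13210 and 17686 in FSP27-deficient WAT and 12150 and 15403 in wild-type WAT (log2 fold change 0.16, SE 0.18, adjusted p = 0.651 from limma). Gpx4 reduces lipid peroxides within membranes, and its gene makes cytosolic, mitochondrial and nuclear forms that the array does not tell apart. It had 12238 and 16062 in FSP27-deficient WAT and 12036 and 13826 in wild-type WAT (log2 fold change 0.12, SE 0.17). The arrays of the genotypes overlapped for both, and the other Gpx4 probe set gave a log2 fold change of -0.02.

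Prdx3, the peroxiredoxin of mitochondria, was higher in FSP27-deficient WAT. It had 7501 and 10978 in the FSP27-deficient duplicates, against 3582 and 5384 in the wild-type duplicates. The means were 9239 ± 2459 in FSP27-deficient WAT and 4483 ± 1274 in wild-type WAT (SD, n = 2 each), a ratio of 2.06 (log2 fold change 1.04, SE 0.23, adjusted p = 0.0103 from limma). The genotypes did not overlap, and without wild-type replicate 1 the log2 fold change was 0.75 and not past the threshold (adjusted p = 0.128 from limma). The study itself listed Prdx3, Sod2, Txn2 and Txnrd2 among its raised genes from these arrays, so that their direction here is not independent evidence.

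Prdx4, the peroxiredoxin of the endoplasmic reticulum lumen, was lower. It had 529.6 and 462.9 in the FSP27-deficient duplicates, against 789.4 and 975.5 in the wild-type duplicates, 1.78-fold lower with no overlap (log2 fold change -0.81, SE 0.23, adjusted p = 0.0359 from limma). Its dimmer probe sets gave -2.02 and -0.78, neither past the threshold (adjusted p = 0.107 and 0.401 over all probe sets in limma). The call was lost without FSP27-deficient replicate 2 (adjusted p = 0.0782), without wild-type replicate 1 (0.106) and without wild-type replicate 2 (0.316).

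Prdx2, a peroxiredoxin of the cytosol, had 3848 and 4006 in FSP27-deficient WAT and 2758 and 2881 in wild-type WAT. The duplicates were tight and did not overlap, and the difference did not pass the adjusted test (log2 fold change 0.48, SE 0.17, adjusted p = 0.0926 from limma). Srxn1, sulfiredoxin, which restores overoxidised peroxiredoxins, had 422.6 and 347.8 in FSP27-deficient WAT and 208.3 and 198.8 in wild-type WAT (log2 fold change 0.86, SE 0.29, adjusted p = 0.0735 from limma). Its arrays did not overlap, but 3 further probe sets of Srxn1 gave 0.12, 0.17 and 0.67.

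The thioredoxin and glutaredoxin system had 0 of 6 members past the test in limma. Txn2, the mitochondrial thioredoxin that feeds Prdx3, had 1459 and 2163 in the FSP27-deficient duplicates, against 1038 and 1276 in the wild-type duplicates. The arrays did not overlap (log2 fold change 0.62, SE 0.23, adjusted p = 0.104 from limma). The other Txn2 probe sets gave 0.48 and 0.49. Txn1, the cytosolic thioredoxin, had 4628 and 6459 in FSP27-deficient WAT and 5501 and 6308 in wild-type WAT, with overlap (log2 fold change -0.11, SE 0.19). Its dimmer probe set gave 0.23.

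The thioredoxin reductases, which return thioredoxin to its reduced state, did not pass the test either. Txnrd2, the mitochondrial reductase, had 355.1 and 585.9 in FSP27-deficient WAT and 333.8 and 445.9 in wild-type WAT (log2 fold change 0.23, SE 0.29). Its arrays overlapped, and its other probe set gave 0.59. Txnrd1, the cytosolic reductase, had 726.1 and 943.3 in FSP27-deficient WAT and 1118 and 974.2 in wild-type WAT, without overlap (log2 fold change -0.33, SE 0.22).

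The glutaredoxins use glutathione to reduce protein disulfides, and here the mitochondrial form had the lower log2 fold change. Glrx2, the mitochondrial form, had 555.2 and 744.9 in FSP27-deficient WAT and 958.1 and 779.7 in wild-type WAT (log2 fold change -0.42, SE 0.23, adjusted p = 0.299 from limma). Its other probe sets disagreed with this one, at 0.13 and 0.07. Glrx, the cytosolic form, had 528.9 and 505.5 in FSP27-deficient WAT and 391.5 and 423.5 in wild-type WAT (log2 fold change 0.33, SE 0.23, adjusted p = 0.423 from limma).

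Of the enzymes that make or reduce glutathione, 0 of 4 passed the test. Gsr, the glutathione reductase, had 780.4 and 748.2 in FSP27-deficient WAT and 480.9 and 556.3 in wild-type WAT, with no overlap (log2 fold change 0.55, SE 0.22, adjusted p = 0.138 from limma). A dimmer Gsr probe set had the opposite sign, at -0.23. The catalytic and modifier subunits of glutamate-cysteine ligase, Gclc and Gclm, and glutathione synthetase, Gss, had log2 fold changes of -0.20, 0.24 and 0.14. The dimmer probe set of Gclc gave 0.50.

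Nfe2l2, Keap1 and Nqo1 did not pass the test. Nfe2l2, which encodes NRF2, had 944.8 and 1036 in FSP27-deficient WAT and 941.8 and 978.2 in wild-type WAT (log2 fold change 0.04, SE 0.20). Keap1, which holds NRF2 back, had 712.9 and 843.7 in FSP27-deficient WAT and 699.6 and 938.5 in wild-type WAT (log2 fold change -0.06, SE 0.23; 0.07 by its dimmer probe set). Nqo1, a quinone reductase and known NRF2 target, had 198.1 and 245.4 in FSP27-deficient WAT and 219.9 and 145.6 in wild-type WAT (log2 fold change 0.28, SE 0.37). The arrays of the genotypes overlapped for all 3.

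Of the 11 soluble glutathione transferases, 3 were higher and 2 lower in FSP27-deficient WAT (27.3% and 18.2%, beside 5.78% and 6.51% of all genes tested). Gsto1, of the omega class, reduces dehydroascorbate and mixed disulfides. It had 2448 and 2451 in the FSP27-deficient duplicates, against 1071 and 1285 in the wild-type duplicates, a ratio of 2.08 (log2 fold change 1.05, SE 0.19, adjusted p = 0.0037 from limma). The genotypes did not overlap, and its dimmer probe set gave 1.10 (adjusted p = 0.0102 over all probe sets in limma). Without wild-type replicate 1 the call was lost (log2 fold change 0.92, adjusted p = 0.0587).

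Gsta4, the alpha-class enzyme that conjugates 4-hydroxynonenal from oxidised lipids, had 2924 and 4649 in the FSP27-deficient duplicates, against 1686 and 2278 in the wild-type duplicates. It was 1.91-fold higher with no overlap (log2 fold change 0.91, SE 0.24, adjusted p = 0.0253 from limma). Without FSP27-deficient replicate 2 its log2 fold change was 0.57 (adjusted p = 0.106), and without wild-type replicate 1 it was 0.69 (adjusted p = 0.226 from limma). Gsta3, of the same class, had 2491 and 4191 in FSP27-deficient WAT and 1985 and 3140 in wild-type WAT, with overlap (log2 fold change 0.37, SE 0.27).

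Gstz1, the zeta-class maleylacetoacetate isomerase of tyrosine breakdown, had 9207 and 9514 in the FSP27-deficient duplicates, against 5804 and 7000 in the wild-type duplicates, a ratio of 1.46 (log2 fold change 0.55, SE 0.16, adjusted p = 0.0466 from limma). The duplicates of FSP27-deficient WAT lay close together and above both wild-type arrays. The call was lost without FSP27-deficient replicate 2 (adjusted p = 0.0616), without wild-type replicate 1 (0.413) and without wild-type replicate 2 (0.11).

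Gstm1, of the mu class, was lower in FSP27-deficient WAT. It had 3086 and 4534 in the FSP27-deficient duplicates, against 8630 and 9410 in the wild-type duplicates. The means were 3810 ± 1024 in FSP27-deficient WAT and 9020 ± 551.8 in wild-type WAT (SD, n = 2 each), 2.37-fold lower with no overlap (log2 fold change -1.26, SE 0.20, adjusted p = 0.00154 from limma). Its other probe sets gave -1.31, -1.08 and -0.73, the last not past the threshold (adjusted p = 0.194 over all probe sets in limma), and the call held with any single array left out (adjusted p = 9.64e-05 to 0.0147). Mu-class genes lie side by side on chromosome 3 and are near-identical in places, so that a share of this signal may belong to another mu-class gene. The study showed the change of Gstm1 on these arrays, as a gene of a WAT-selective list taken from elsewhere, and its direction here is likewise not independent evidence.

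The other mu-class members had negative log2 fold changes that did not pass the test. Gstm2 had 1942 and 2157 in FSP27-deficient WAT and 2900 and 2537 in wild-type WAT, with no overlap (log2 fold change -0.40, SE 0.18, adjusted p = 0.19 from limma). Gstm5 had 2820 and 2311 in FSP27-deficient WAT and 3959 and 2591 in wild-type WAT, with overlap (log2 fold change -0.33, SE 0.22).

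The theta-class neighbours on chromosome 10 had opposite signs. Gstt1 had 842.5 and 1800 in the FSP27-deficient duplicates, against 2603 and 2436 in the wild-type duplicates, 1.91-fold lower with no overlap (log2 fold change -1.02, SE 0.29, adjusted p = 0.036 from limma). Its FSP27-deficient duplicates lay far apart, and the log2 fold change was -0.48 without FSP27-deficient replicate 1 (adjusted p = 0.148) and -1.56 without FSP27-deficient replicate 2 (adjusted p = 3.65e-04 from limma). The call was also lost without wild-type replicate 1 (0.156) and without wild-type replicate 2 (0.102). Gstt2 had 1042 and 1651 in FSP27-deficient WAT and 803.4 and 1045 in wild-type WAT, with overlap (log2 fold change 0.51, SE 0.25, adjusted p = 0.226 from limma).

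Gstp1, of the pi class, and Gstk1, the kappa-class enzyme of mitochondria and peroxisomes, did not differ beyond the spread of their duplicates. Gstp1 had 8200 and 6786 in FSP27-deficient WAT and 7203 and 6709 in wild-type WAT (log2 fold change 0.10, SE 0.17). Gstk1 had 1802 and 2195 in FSP27-deficient WAT and 1843 and 1864 in wild-type WAT (log2 fold change 0.10, SE 0.19).

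Of the membrane transferases, Mgst1 was higher and Mgst3 was not past the test. Mgst1, a glutathione transferase and peroxidase of the endoplasmic reticulum and outer mitochondrial membrane, had 19746 and 21883 in the FSP27-deficient duplicates, against 13103 and 14258 in the wild-type duplicates, a ratio of 1.52 (log2 fold change 0.60, SE 0.15, adjusted p = 0.0206 from limma). Its arrays did not overlap, and the call was lost without wild-type replicate 1 (adjusted p = 0.224) and without wild-type replicate 2 (0.111). Mgst3 had 4858 and 5822 in FSP27-deficient WAT and 5673 and 6382 in wild-type WAT, with overlap (log2 fold change -0.18, SE 0.17, adjusted p = 0.577 from limma).

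**Figure D2:**
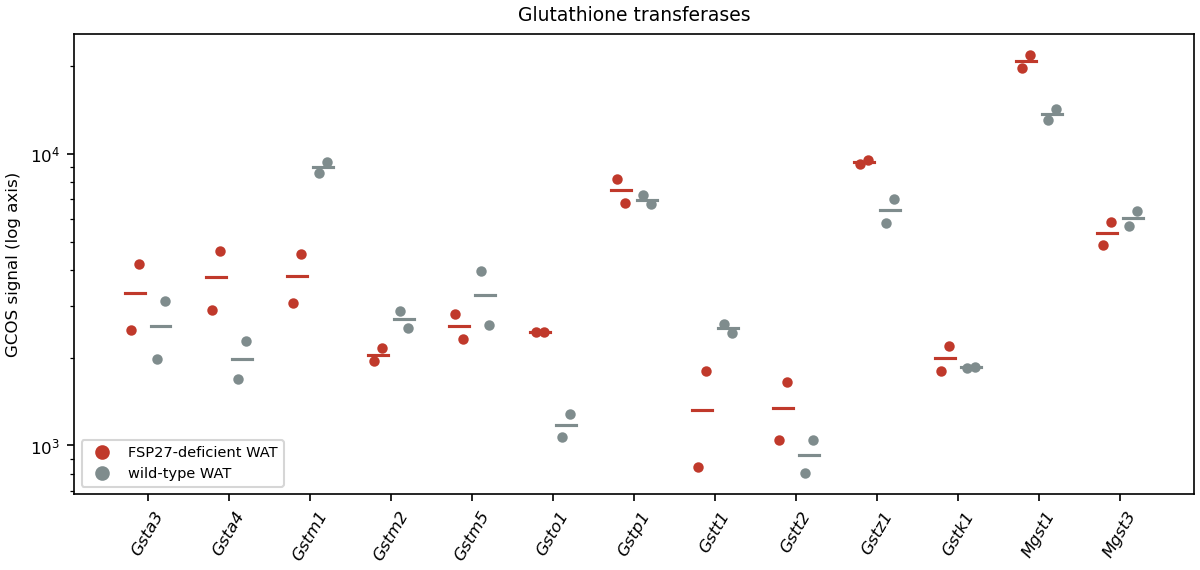
GCOS signal on a log axis of each array for the 13 glutathione transferases, with FSP27-deficient arrays in red and wild-type arrays in grey; points are arrays and bars are means of 2 arrays. Gsta4, Gsto1, Gstz1 and Mgst1 lie higher and Gstm1 and Gstt1 lower in FSP27-deficient WAT, each with no overlap.

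The members were set out by the compartment of the main protein product. The log2 fold change was above 0 for 5 of 6 mitochondrial, 16 of 23 cytosolic and 1 of 3 secretory members. Over all genes tested it was above 0 for 3676 of 8523. Of 6 mitochondrial members tested (Sod2, Prdx3, Txn2, Txnrd2, Glrx2 and Gstk1), 2 were higher and 0 lower, with a median log2 fold change of 0.43. With the mitochondrial forms limited to Sod2, Prdx3, Txn2 and Txnrd2 the median was 0.81, and without wild-type replicate 1 none of the 6 was called. The median of the 6 was 0.74 without FSP27-deficient replicate 1 and 0.15 without FSP27-deficient replicate 2. Of 23 cytosolic members, 3 were higher and 2 lower (median 0.24). Gpx4, Gsr and Gstz1 were counted as cytosolic but also have mitochondrial forms, and Gstk1 and Glrx2, counted as mitochondrial, have forms elsewhere. The compartments are therefore not cleanly separated. Leaving out wild-type replicate 1 gave a cytosolic median of 0.09, and leaving out FSP27-deficient replicate 2 gave 0.13, next to the mitochondrial median of 0.15 in that setting. The cytosolic counts without wild-type replicate 1 were 0 higher and 1 lower. Leaving out FSP27-deficient replicate 1 gave 5 higher and 1 lower, FSP27-deficient replicate 2 gave 1 higher, and wild-type replicate 2 gave 1 lower. Of the 3 secreted or endoplasmic reticulum members (Sod3, Gpx3 and Prdx4), 2 were lower and 0 higher, with a median of -0.81, and 1 was lower without FSP27-deficient replicate 2 or without either wild-type array. These medians stand beside -0.08 over all genes tested, with calls for 5.78% and 6.51% of genes.

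**Figure D3:**
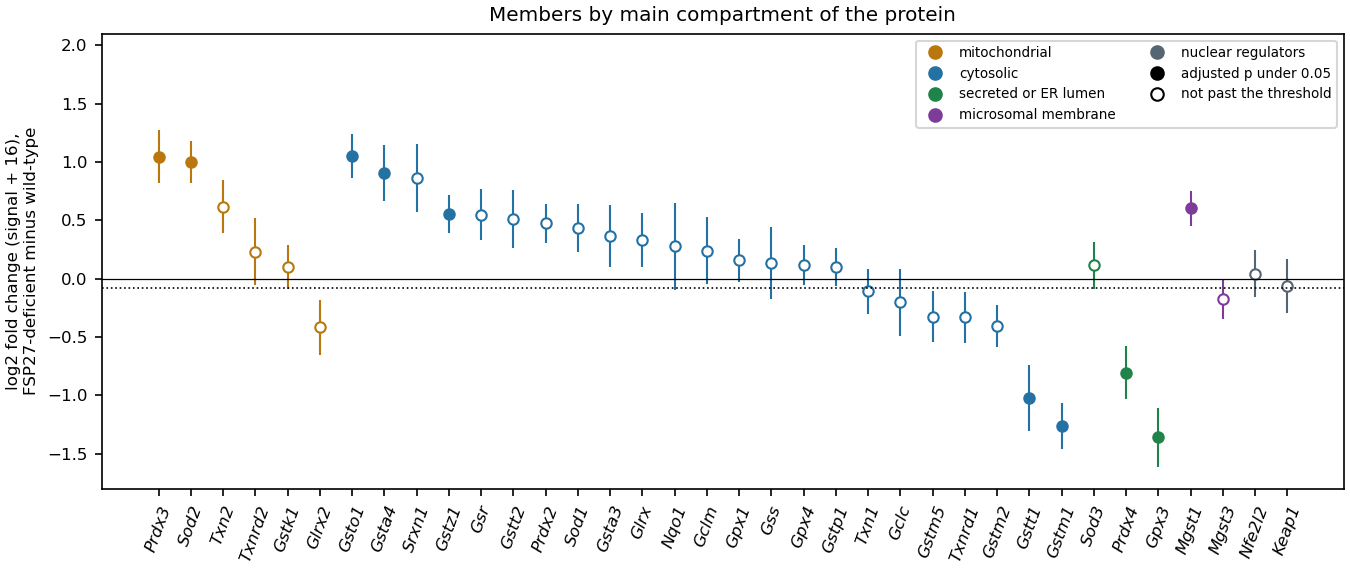
FSP27-deficient minus wild-type log2 fold change (signal plus 16) for the 36 measured members by compartment, with limma's standard error as bars and filled points past an adjusted p of 0.05. The dotted line is the median of all genes tested, -0.08; mitochondrial members run up to 1.04 (Prdx3) and secreted ones down to -1.36 (Gpx3).

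Forms of an enzyme family were then set against each other within each array, as a difference of log2 fold changes, which compares changes and not levels. Of 10 pairs listed, 9 could be computed, since Prdx1 was not measured. The genotypes did not overlap in 8 of them, and in 7 of these the log2 fold change of the form named first was the larger. Among single genes tested, 54.1% did not overlap. The pairs are not independent, since Sod2 and Prdx3 each stand in several, and Gpx1 minus Gpx3 sets a cytosolic form against a secreted one. With 2 arrays against 2, an exact two-sided permutation test cannot go below p = 0.333. The exact permutation test gave p = 0.333 for those 8 pairs (0.375 adjusted over the 9) and p = 1 for Gstk1 minus Gstp1, so that this test cannot call any pair.

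Prdx3 minus Prdx4 was 1.85 (SE 0.40), with a log2 signal difference of 3.78 and 4.52 in the FSP27-deficient duplicates, against 2.16 and 2.45 in the wild-type duplicates. Prdx3 minus the cytosolic Prdx2 was 0.57 (SE 0.36), with 0.31 to 0.83 as single arrays were left out. Sod2 minus Sod3 was 0.89 (SE 0.49; 0.44 to 1.34 with single arrays left out), and Sod2 minus Sod1 was 0.57 (SE 0.40). The last value was sensitive to the array left out, at 0.22 without FSP27-deficient replicate 1 and 0.92 without FSP27-deficient replicate 2.

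Txn2 minus Txn1 was 0.73 (SE 0.06), with log2 differences of -1.66 and -1.57 in FSP27-deficient WAT, against -2.39 and -2.29 in wild-type WAT. This pair had the smallest SE of the 9, but an SE from 2 arrays per genotype is itself imprecise. Under other processing the value moved by more than this SE, as given in the closing section. Txnrd2 minus Txnrd1 was 0.56 (SE 0.34; 0.26 to 0.86 with single arrays left out), and Gpx1 minus Gpx3 was 1.52 (SE 0.42). Glrx2 minus Glrx was -0.75 (SE 0.31), which rests on a Glrx2 probe set that the gene's other probe sets do not match in sign. Gstk1 minus Gstp1 was -0.00 (SE 0.28), with values of -0.28 to 0.28 as single arrays were left out.

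**Figure D4:**
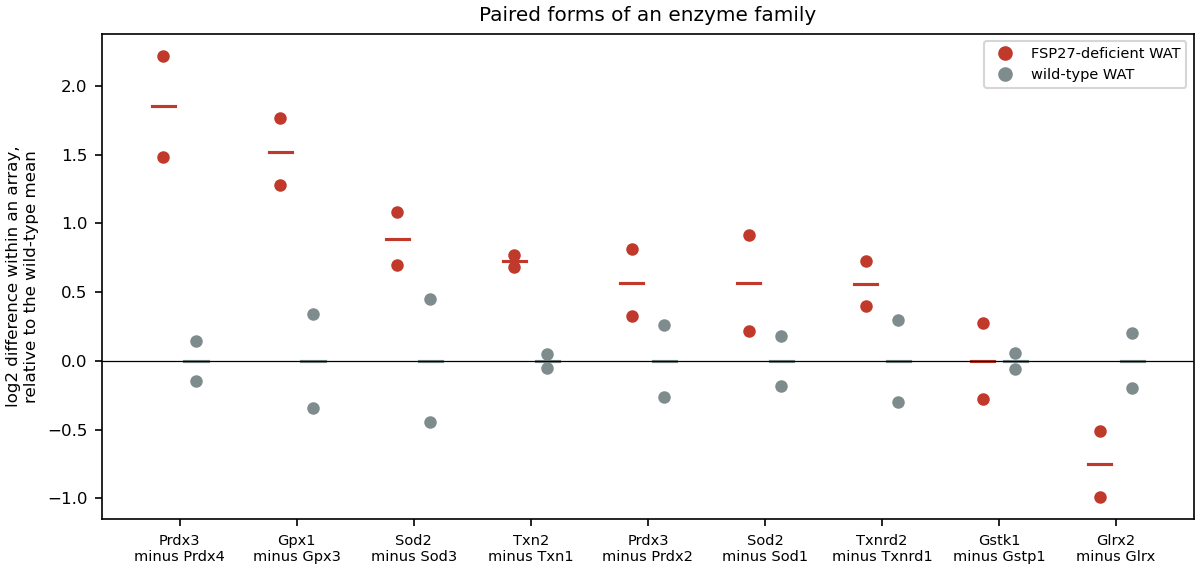
Log2 difference between paired forms within each array, set to the wild-type mean of the pair, for 9 pairs; red points are FSP27-deficient arrays, grey points wild-type arrays, and bars the means of 2 arrays. FSP27-deficient arrays lie above both wild-type arrays in 7 pairs, from 1.85 for Prdx3 minus Prdx4 to 0.56 for Txnrd2 minus Txnrd1, overlap in Gstk1 minus Gstp1 and lie below in Glrx2 minus Glrx.

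Other redox and related genes were read from lists of their own. The counts called in each list stand beside 5.78% of all genes tested called higher and 6.51% called lower. Of 8 further peroxidases and transferases tested, 2 were higher and 1 lower. The median of these 8 was -0.53 with all arrays, and with 1 array left out it was nearer 0, at -0.40 (without wild-type replicate 2) to -0.07 (without FSP27-deficient replicate 2). Mgst2, a microsomal transferase of leukotriene and lipid peroxide metabolism, had 1997 and 2347 in the FSP27-deficient duplicates, against 346.9 and 621.7 in the wild-type duplicates (log2 fold change 2.18, SE 0.26, adjusted p = 2.76e-04 from limma). Cat, the peroxisomal catalase, had 12140 and 10649 in FSP27-deficient WAT and 6385 and 5092 in wild-type WAT (log2 fold change 0.99, SE 0.17, adjusted p = 0.00294 from limma). Gpx7 of the endoplasmic reticulum was the lower one (log2 fold change -0.80, SE 0.23), and its call was lost without FSP27-deficient replicate 2 (adjusted p = 0.0904), without wild-type replicate 1 (0.182) and without wild-type replicate 2 (0.292).

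Among 10 genes listed for NADPH supply, 3 were higher (Me1, Aldh1l1 and Taldo1) and 1 lower (median 0.34). Taldo1 is an enzyme of the pentose phosphate pathway that does not itself make NADPH, and G6pdx of this list was not measured. Me1, the cytosolic malic enzyme, had 13742 and 13140 in FSP27-deficient WAT and 5115 and 6627 in wild-type WAT (log2 fold change 1.20, SE 0.17, adjusted p = 8.8e-04 from limma). Nnt, the transhydrogenase that makes NADPH inside mitochondria, had 372.6 and 406.3 in FSP27-deficient WAT and 1044 and 972.7 in wild-type WAT (log2 fold change -1.34, SE 0.22, adjusted p = 0.00214 from limma). The C57BL/6J substrain is known for a deletion within Nnt, and whether strain background differed between the pools was not tested. With wild-type replicate 1 left out, Me1 alone of the 3 was called higher.

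Of 13 genes listed under glutathione and cysteine turnover, 2 were higher (Oplah and Cth) and 2 lower (Gamt and Dpep1). Gamt makes creatine and is not an enzyme of this turnover, but it was kept in the counts and the median. The median was 0.20 (0.30 when wild-type replicate 2 was left out). Oplah, which returns 5-oxoproline to glutamate, had 4626 and 3427 in FSP27-deficient WAT and 729.5 and 981.9 in wild-type WAT (log2 fold change 2.21, SE 0.22, adjusted p = 8.1e-05 from limma). Cth, which makes cysteine from cystathionine, had 927.7 and 622.0 in FSP27-deficient WAT and 204.2 and 361.7 in wild-type WAT (log2 fold change 1.43, SE 0.30, adjusted p = 0.00928; 0.101 with wild-type replicate 1 left out). Leaving out that array gave 1 gene higher and 0 lower in the list, and the other settings with 1 array left out gave 1 or 2 lower.

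The thioredoxin family and its repair enzymes had 2 of 14 higher (Msra and Park7) and 2 lower (Txnip and Sesn1). Its median was -0.08, with -0.29 without FSP27-deficient replicate 1 and 0.00 without FSP27-deficient replicate 2. Txnip, the inhibitor that binds thioredoxin, had 4046 and 6093 in FSP27-deficient WAT and 9774 and 11737 in wild-type WAT (log2 fold change -1.11, SE 0.20, adjusted p = 0.00407 from limma). Msra, a methionine sulfoxide reductase, had 1912 and 1839 in FSP27-deficient WAT and 975.7 and 731.5 in wild-type WAT (log2 fold change 1.14, SE 0.21, adjusted p = 0.00408; 0.0593 without wild-type replicate 2). Leaving out wild-type replicate 1 gave 1 higher and 1 lower in the list, and leaving out wild-type replicate 2 gave 0 and 1.

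Of 15 further NRF2 targets and small MAF genes, 0 were higher and 1 was lower, Ephx1, an epoxide hydrolase (log2 fold change -0.98, SE 0.21, adjusted p = 0.0109 from limma; 0.156 without wild-type replicate 1). Bach1 and Mafk, a repressor and a small MAF partner at the antioxidant response element, were not past the threshold. Both were named after their values were seen, and the arrays of the genotypes did not overlap for either. In this list FSP27-deficient WAT lay below without overlap for 6 genes and above for 5, beside 31.4% and 22.7% of all genes. Bach1 had 420.0 and 280.2 in FSP27-deficient WAT and 561.0 and 754.7 in wild-type WAT (log2 fold change -0.89, SE 0.27, adjusted p = 0.0508 from limma). Mafk had 351.4 and 179.7 in FSP27-deficient WAT and 463.3 and 493.0 in wild-type WAT (log2 fold change -0.88, SE 0.32, adjusted p = 0.095 from limma). The median of the list was 0.11 and ranged between -0.00 (without wild-type replicate 1) and 0.16 (without wild-type replicate 2), and 3 of its genes were lower without FSP27-deficient replicate 1. Of 12 metal-handling and selenoprotein genes, 2 were higher (Sephs2 and Atox1) and 4 lower (Mt2, Mt1, Cp and Selenow). Their median was -0.11, with -0.27 without wild-type replicate 1 and 0.05 without wild-type replicate 2. Mt2, a metallothionein, had 437.3 and 461.7 in FSP27-deficient WAT and 2084 and 2965 in wild-type WAT (log2 fold change -2.43, SE 0.22, adjusted p = 5.5e-05 from limma). Mt1, its neighbour gene, had 1944 and 2698 in FSP27-deficient WAT and 5500 and 7074 in wild-type WAT (log2 fold change -1.44, SE 0.20, adjusted p = 8.8e-04 from limma). This list had 0 higher and 2 lower without wild-type replicate 1, and 1 higher when wild-type replicate 2 was left out. Of 7 NADPH oxidase and other oxidant-producing genes 1 was lower, the oxidase subunit Cyba (log2 fold change -1.16, SE 0.24, adjusted p = 0.00863 from limma; 0.107 without wild-type replicate 2), and the list's median was -0.89 (-0.57 without FSP27-deficient replicate 2). It had 2 lower without FSP27-deficient replicate 1 and 3 lower without FSP27-deficient replicate 2.

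**Figure D5:**
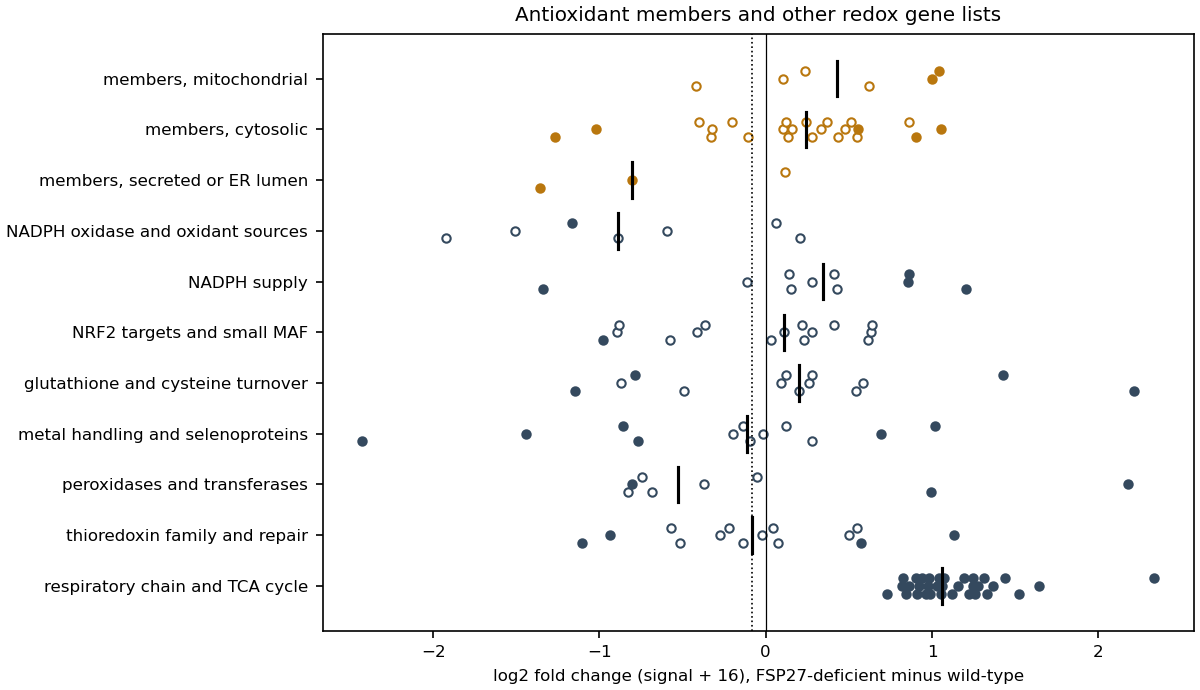
FSP27-deficient minus wild-type log2 fold change (signal plus 16) for each tested gene of the members by compartment (gold) and of other lists (blue); filled points passed an adjusted p of 0.05, black bars are list medians and the dotted line is the median of all genes, -0.08. Respiratory chain and TCA cycle genes lie between 0.73 and 2.34, and the mitochondrial members between -0.42 and 1.04.

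For scale, 33 of 33 respiratory chain and tricarboxylic acid cycle genes were higher in FSP27-deficient WAT, with a median log2 fold change of 1.06 and a range of 0.73 to 2.34. Sod2 (1.002) and Prdx3 (1.04) lay inside that range, while Txn2 (0.62), Txnrd2 (0.23), Gstk1 (0.10) and Glrx2 (-0.42) lay below it.

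Markers of cell types other than the white adipocyte moved with genotype as well. The counts called in the marker lists stand beside 5.78% of all genes tested called higher and 6.51% called lower. Macrophage markers were lower for 5 of 7 genes tested and 0 higher, with a summed signal of 5398 and 6548 in the FSP27-deficient duplicates, against 15140 and 13674 in the wild-type duplicates. Fibroblast and preadipocyte markers were lower for 4 of 7 and mesothelial markers for 3 of 6, with 0 higher in either list. Without wild-type replicate 1 these counts were 1 and 1, and without wild-type replicate 2 the macrophage count was 3. Their summed signals were 22681 and 24755 in FSP27-deficient WAT and 42544 and 40827 in wild-type WAT for fibroblasts, and 2013 and 1570 in FSP27-deficient WAT and 4486 and 4534 in wild-type WAT for mesothelium. Gpx3, Gstm1, Gstt1 and Prdx4 moved in the same direction as these lists, whose part in the result was not tested.

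Brown adipocyte markers were higher for 4 of 5 genes tested (Cox8b, Elovl3, Cidea and Dio2; Dio2 was not called without FSP27-deficient replicate 2 or either wild-type array), with a summed signal of 19481 and 24035 in FSP27-deficient WAT and 1365 and 977.2 in wild-type WAT. Ucp1, the defining brown fat gene, had a mean over the 4 arrays below the minimum of 100 and was not tested, with signals of 157.2 and 31.3 in the FSP27-deficient duplicates and 18.9 and 12.9 in the wild-type duplicates. Adipocyte markers had 0 of 6 higher and 1 lower, the leptin gene Lep, with a summed signal of 169160 and 182290 in FSP27-deficient WAT and 140580 and 161150 in wild-type WAT. Adipoq, the adiponectin gene that defines adipocytes, had 50496 and 54068 in FSP27-deficient WAT and 44423 and 48824 in wild-type WAT. Endothelial markers had 1 of 7 lower (Pecam1, not called without FSP27-deficient replicate 1 or either wild-type array), with a summed signal of 4304 and 4665 in FSP27-deficient WAT and 5827 and 6603 in wild-type WAT. Few granulocyte, lymphocyte, erythroid or epididymal markers reached the minimum signal (3, 1, 2 and 1 genes), of which Prtn3 was lower (not called without wild-type replicate 2) and Car1 higher (not called without FSP27-deficient replicate 2). Log2 fold changes were above 0 for 2 of the 3 granulocyte genes tested (median 0.51), against the direction of Prtn3. Of the 2 erythroid genes tested, the one other than Car1 was at -0.21. The part of these cell types in the members' values was not tested.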

How the data were processed

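The deposited values are the authors' GCOS signals, linear intensity values of 22690 probe sets of 4 Affymetrix Mouse Genome 430A 2.0 arrays. The sources used here give neither the GCOS version nor its scaling target. The median signal was 181 and 165 in the FSP27-deficient duplicates and 193 and 172 in the wild-type duplicates, and precision is limited by the number of arrays. The SD of the log2 difference between duplicates over genes was 0.64 in FSP27-deficient WAT and 0.46 in wild-type WAT. Probe sets were named by the platform annotation, 20393 with 1 symbol. Each gene was read from its probe set with the highest mean signal, and 8523 genes with a mean of at least 100 were tested on log2(signal + 16) with limma 3.58.1 (lmFit, eBayes with trend) in R 4.3.3, with Benjamini-Hochberg adjustment at 0.05. Promoters came from RefSeq (GRCm38.p6). Members passing the threshold, members of pairs and up to 2 genes from each other list, those with the largest change past the threshold, besides Cat and Cidec, were named with values. Gpx7, Ucp1 and Adipoq, with Bach1 and Mafk, were named after their values were seen. The members and lists, compartments included, were chosen with earlier results of these data known. Lists are described by counts and medians, with no set test. Of 290 list entries, in which a gene can stand more than once, 257 were matched. Alternatives were pseudocounts of 1 and 64, other filters, normalizations and probe set rules, no trend, the methods' t-test, the study's fold criterion, a replicate block and each array left out. Leaving out an array makes the fit take the spread of the single remaining one from the other genotype. The steps were tested on simulated data.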

Additional observations from a re-analysis of the deposited data

How the results depend on the processing

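No member's log2 fold change reversed a call, and members kept their sign in 479 of 504 values under the alternatives, while medians of lists kept theirs in 133 of 140. Members called higher (6) and lower (4) numbered 3 and 2 with no filter on low signals, and 0 and 0 without the trend (1 gene of all was then called, and 1861 had an unadjusted p under 0.05) and by the methods' t-test after Benjamini-Hochberg adjustment (0 of all genes, with 1309 at an unadjusted p under 0.05, 9 of them members). The fold criterion took 10 members as higher, 6 of them cytosolic, and centring each array on its median left 2 called lower.

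By compartment, mitochondrial members called higher (2) numbered 0 without the trend and 0 by the methods' t-test. Cytosolic members called higher (3) and lower (2) numbered 1 and 1 with no filter, and 0 and 0 without the trend and by the methods' t-test. After centring, or with the mean of the probe sets, 1 was lower. With every probe set on its own, 4 probe sets were lower, all of them of Gstm1 or Gstt1, the same members as before. Secreted members called lower (2) numbered 1 after centring, with no filter or after quantile normalization, and 0 without the trend and by the methods' t-test. The median of secreted members was -1.20 with the mean of probe sets, and that of mitochondrial members 0.81 with only Sod2, Prdx3, Txn2 and Txnrd2. The cause was not tested.

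Prdx3 minus Prdx4 was 2.25 and Txn2 minus Txn1 0.47 with the mean of probe sets, Txn2 minus Txn1 0.99 after quantile normalization, and Txnrd2 minus Txnrd1 1.04 with each array's highest signal per gene.

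With 1 array left out, members called higher ranged from 0 to 9 and lower from 2 to 3, cytosolic members from 0 to 5 higher and 1 to 2 lower, mitochondrial members from 0 to 3 higher (median 0.15 to 0.74), and secreted members from 1 to 2 lower (median -0.96 to -0.66). The lowest counts of higher calls came without wild-type replicate 1 and the highest without FSP27-deficient replicate 1, when Sod1, Gstt2 and Txn2 were called.

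The correlation of same-numbered arrays' deviations over the genes tested was 0.07. This single value does not decide whether the numbers pair the arrays for some genes, which was not tested. With the replicate number as a block, 7 members were higher and 4 lower, 3 of the mitochondrial members were higher with Txn2 gained (adjusted p = 0.0272 from limma), and of all genes 635 were higher and 831 lower. Counts over all genes (493 higher, 555 lower) were 472 and 464 after quantile normalization and 460 and 408 after centring.

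With 2 hybridizations of 1 pool per genotype, the spread between mice is unknown, and log2 changes near 0.5 were mostly not detectable at this precision. Calls near the threshold, those of Gstz1, Mgst1, Prdx4 and Gstt1, were lost after centring and with no filter, and that of Gsta4 with no filter (adjusted p = 0.0605 from limma).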
